A study of Mus musculus with 9 samples.

Results

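Nitric oxide signals inside cells by way of cyclic GMP, and 6 genes of this route were followed in lymphatic endothelial cells (LECs) of 3 mouse tissues. Gucy1b3, Gucy1a3 and Gucy1a2 encode the beta1, alpha1 and alpha2 subunits of soluble guanylate cyclase, the receptor for nitric oxide. Nos3 encodes endothelial nitric oxide synthase, Prkg1 the cyclic GMP-dependent protein kinase, and Pde5a a phosphodiesterase that breaks down cyclic GMP. The genes were found by their symbols, and all 6 were among the 23018 genes of the count table and among the 14831 that passed the filter on low counts.

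Soluble guanylate cyclase works as a pair of 1 alpha and 1 beta subunit around a haem group, and the beta1 subunit partners either alpha subunit. Nitric oxide binds the haem and switches on the production of cyclic GMP, which activates the kinase until phosphodiesterases remove it. Endothelial cells make nitric oxide with Nos3, held inactive in caveolae by caveolin-1 (Cav1), and in collecting lymphatic vessels nitric oxide is known to relax the muscle coat and to shape the rhythm of pumping.

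The CD45-CD31+PDPN+ fraction, LECs by this gate, had been sorted from meninges, diaphragm or skin of male wild-type C57BL/6J mice (C57/Bl6 in the strain label), 10 weeks old and without treatment. Each tissue gave 3 libraries, 9 in all. The question put to the data is how meningeal LECs differ from LECs of 2 tissues outside the nervous system. The labels do not say whether the 3 libraries came from separate animals or pools, so p-values here cover the spread among libraries alone, which may be technical.

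Total counts ran from 26075366 to 34592850 per library, and the number of genes with a count from 13241 (Skin replicate 3) to 17245 (Meninges replicate 2). The 10 lymphatic endothelial markers examined, among them Prox1, Flt4, Lyve1 and Pdpn, had counts in every library. Their summed level was 6431 to 15381 CPM (normalised counts on the TMM scale) in meninges, 14039 to 19893 in diaphragm and 19849 to 20636 in skin. Markers of other cells were present too. The 12 fibroblast genes summed to 1592, 8870 and 8584 CPM in Meninges replicates 1, 2 and 3, to 754 to 1466 in diaphragm and to 113 to 1183 in skin, and their part in the differences given here was not tested beyond the fits named. Of the marker genes tested, edgeR called 3 of bone and cartilage and 1 of blood endothelium higher in meninges than in diaphragm, and 2 of skeletal muscle and 1 of mesothelium lower. Against skin it called 3, 4, 2 and 1 of the bone and cartilage, blood endothelial, fibroblast and mural genes higher, and 1 lymphatic (Lyve1) and 1 blood endothelial gene lower. Mitochondrial rRNA made up 22.9%, 10.8% and 18.3% of counts in the meningeal libraries, 19.0% to 29.0% in diaphragm and 27.0% to 30.8% in skin, and its part was not tested. Since these are bulk samples, fewer cells of a type and less RNA per cell cannot be told apart.

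The beta1 and alpha1 subunit genes of the nitric oxide receptor were lower in meningeal LECs than in LECs of diaphragm or skin. Gucy1b3 was lower 17.0-fold than in diaphragm and 20.0-fold than in skin, and Gucy1a3 7.90-fold and 11.6-fold. Each meningeal library lay under each of the 6 others for both genes. Here and below, a gene passes, or is called, at an adjusted p under 0.05 in edgeR's quasi-likelihood test over all 14831 genes. The alternative subunit gene Gucy1a2, the synthase Nos3, the kinase Prkg1 and the phosphodiesterase Pde5a did not pass the test in any comparison, and none of the 6 genes passed it between diaphragm and skin.

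**Figure D1:**
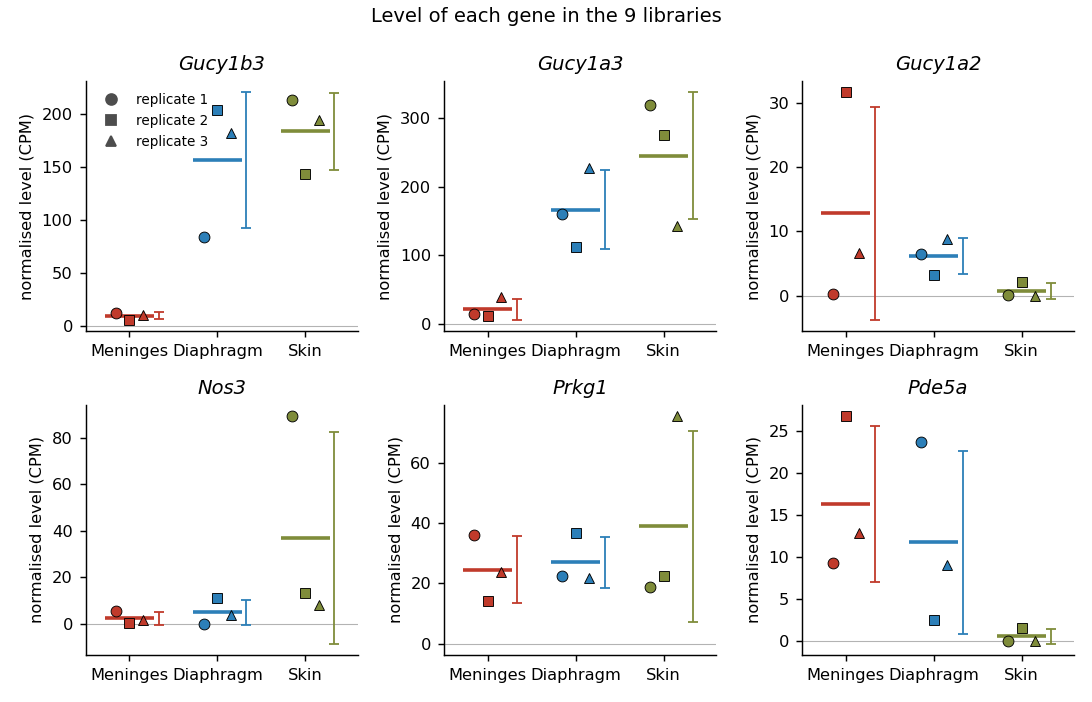
Level of each of the 6 genes (CPM, linear axes that differ between panels) in the 9 libraries, by tissue, with symbols for replicates 1 to 3, a bar at the mean and whiskers of 1 SD (n = 3). For Gucy1b3 the meningeal libraries reach 11.8 CPM at most and the others start at 83.8. For Gucy1a3 the meningeal libraries reach 38.8 CPM and the others start at 112.

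Gucy1b3 (ENSMUSG00000028005) encodes the haem-binding beta1 subunit, without which neither alpha subunit gives an enzyme that responds to nitric oxide. Its level was 11.8, 5.37 and 10.4 CPM in Meninges replicates 1, 2 and 3. It was 83.8, 203 and 182 CPM in the diaphragm libraries and 213, 143 and 194 CPM in the skin libraries. The lowest peripheral library, Diaphragm replicate 1, was still far above the highest meningeal one, and diaphragm and skin overlapped. These values rest on 172 to 392 counts per meningeal library and 2274 to 5503 per library elsewhere, so counting error is small beside the spread between libraries.

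Mean levels (± SD, n = 3) were 9.19 ± 3.38 CPM for meninges, 157 ± 63.9 for diaphragm and 184 ± 36.1 for skin. Meninges against diaphragm gave a log2 fold change of -4.09 with a standard error of 0.54 (edgeR adjusted p = 0.00511, place 10 of 14831 by p). Against skin it was -4.32 with a standard error of 0.55 (edgeR adjusted p = 0.00220, place 12). Diaphragm against skin gave -0.23 with a standard error of 0.48 (edgeR adjusted p = 0.923). Both meningeal calls held in 9 of 9 fits with 1 library removed. With meninges represented by replicate 1 alone, the library lowest in fibroblast markers there, the values were -3.73 against diaphragm and -3.98 against skin, and neither passed (edgeR adjusted p = 0.159 and 0.0555).

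Because Gucy1b3 had the largest called difference of the 6 genes, the 250 bases before its start are shown. They lie at chr3:82074712-82074961 on the minus strand of GRCm38.p6 in RefSeq, which lists the gene as Gucy1b1, and overlap no gene of the GENCODE vM21 annotation. Capitals mark a GC box (GGGCGG), which SP and KLF factors can bind, 140 bases before the start, and the letters ATTGG, which read as the CCAAT box on the opposite strand, 78 and 24 bases before it.
Gucy1b3 promoter: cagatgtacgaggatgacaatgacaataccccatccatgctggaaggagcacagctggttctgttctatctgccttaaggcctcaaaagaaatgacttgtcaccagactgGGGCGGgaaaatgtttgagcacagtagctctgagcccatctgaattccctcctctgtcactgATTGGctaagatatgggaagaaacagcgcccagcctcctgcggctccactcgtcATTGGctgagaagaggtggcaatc
Of 32851 windows of the same length before RefSeq gene starts, 33.8% hold CCAAT and 32.7% hold GGGCGG on either strand, so these letters are common. The KLF motif CACCC, in 52.0% of windows, and the AP-1 motif TGANTCA, in 6.75%, are not in this window. A match is a description of the letters, and binding was not measured.

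Gucy1a3 (ENSMUSG00000033910), listed by RefSeq as Gucy1a1, encodes the alpha1 subunit. It is the neighbour of Gucy1b3 on chromosome 3, on the same strand, with 0 annotated genes between them in RefSeq or GENCODE vM21. RefSeq gives it 2 start windows, of which 1 holds GGGCGG, and neither holds CCAAT. The shared position and the unlike windows are given as annotation only.

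The level of Gucy1a3 was 13.6, 10.8 and 38.8 CPM in the meningeal libraries. In diaphragm it was 159.7, 112 and 227 CPM, and in skin 319, 275 and 142 CPM. Meninges replicate 3 stood above the other two meningeal libraries and still under every peripheral one, and diaphragm and skin overlapped.

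Mean levels (± SD, n = 3) were 21.1 ± 15.4 CPM for meninges, 166 ± 57.8 for diaphragm and 245 ± 92.1 for skin. Meninges gave a log2 fold change of -2.98 against diaphragm (standard error 0.58, edgeR adjusted p = 0.0469) and -3.54 against skin (standard error 0.59, edgeR adjusted p = 0.0106). Diaphragm against skin gave -0.56 with a standard error of 0.54 (edgeR adjusted p = 0.766). The call against skin held in 9 of 9 fits with 1 library removed, at -4.33 without Meninges replicate 3 and -3.23 without Meninges replicate 2 at the extremes. That against diaphragm held in 3 of 9, from -3.77 without Meninges replicate 3 to -2.66 without Meninges replicate 2, with adjusted p between 0.0306 and 0.185. It was lost on leaving out Meninges replicate 1 or 2, any of the diaphragm libraries, or Skin replicate 2. It was also lost with libraries scaled to Prox1, Flt4 and Pecam1 (-2.56, edgeR adjusted p = 0.120), in the fit of those 2 tissues alone (-3.00, edgeR adjusted p = 0.0695) and with meninges represented by replicate 1 alone (-3.61, edgeR adjusted p = 0.134).

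**Figure D2:**
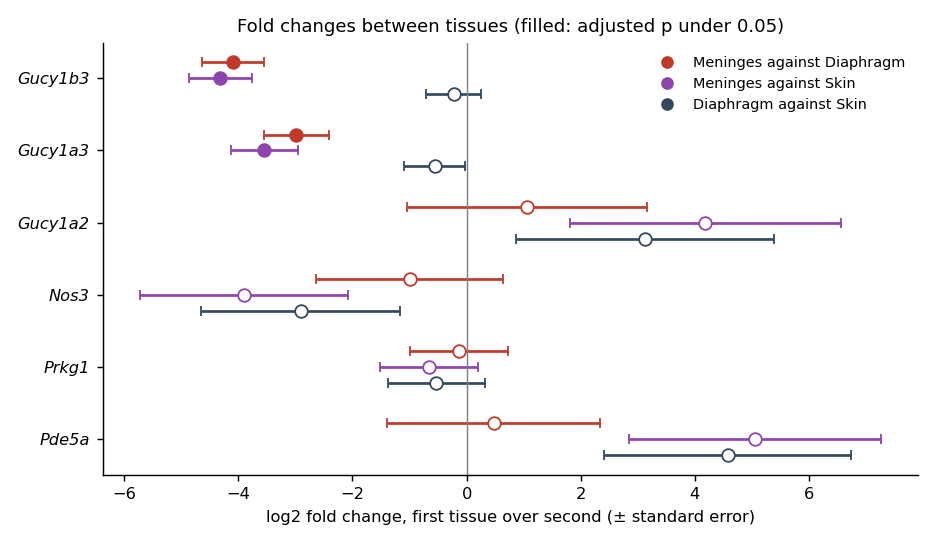
Log2 fold change of each of the 6 genes in the 3 comparisons, first tissue over second, with whiskers of 1 standard error; filled points have an edgeR adjusted p under 0.05. The 4 filled points are Gucy1b3 and Gucy1a3 in both meningeal comparisons, between -4.32 and -2.98.

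Of the 6 genes, 2 were called lower in meninges than in diaphragm and 0 higher, where 0.175% of all tested genes were called lower and 0.169% higher. Against skin, too, 2 were called lower and 0 higher, beside 0.573% and 0.748% of all genes. Libraries did not overlap for 2 genes lower in meninges than in diaphragm (6.7% of all genes, and 10.4% in the other direction, where 0 of the 6 fell). Against skin they did not overlap for 3 genes lower (7.34% of all genes) and 1 higher (12.9%). Between diaphragm and skin 0 of the 6 were called by edgeR, 0 by DESeq2 and 0 by limma voom, and 0 had an unadjusted p under 0.05. Of all genes, edgeR called 0.0337% higher in diaphragm and 0.00674% lower, DESeq2 called 5.99% of those it gave an adjusted p, limma voom called 0.00674%, and 11.8% had an unadjusted p under 0.05. Libraries did not overlap for 2 genes higher in diaphragm (7.54% of all genes) and 0 lower (5.95%). The median log2 fold change of the 6 was -0.57 for meninges against diaphragm, -2.10 against skin and -0.38 for diaphragm against skin, and that of all tested genes 0.05, 0.08 and 0.01. The members were chosen with results of these data known, so these counts describe them and test nothing.

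Relative to Prox1, the transcription factor that keeps lymphatic identity, both subunit genes were also low in meninges. Gucy1b3 gave 0.889, 0.750 and 0.855 counts per 100 Prox1 counts in the meningeal libraries. It gave 5.03, 11.7 and 9.02 in diaphragm and 10.4, 7.96 and 9.98 in skin. Gucy1a3 gave 1.02, 1.50 and 3.20 counts per 100 Prox1 counts in meninges. It gave 9.59, 6.45 and 11.2 in diaphragm and 15.6, 15.3 and 7.29 in skin. For both genes the meningeal libraries again lay under all others on this scale, which does not depend on how libraries were normalised.

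The balance of the subunit genes is a separate question, answered within each library. The log2 ratio of Gucy1b3 to Gucy1a3 counts was -0.21, -1.00 and -1.90 in the meningeal libraries, -0.93, 0.86 and -0.32 in diaphragm and -0.58, -0.94 and 0.45 in skin. The tissues overlapped. Averaged by tissue (± SD, n = 3) it was -1.04 ± 0.85 in meninges, -0.13 ± 0.91 in diaphragm and -0.36 ± 0.72 in skin. Meninges differed by -0.91 from diaphragm and by -0.68 from skin (two-sided exact permutation test, p = 0.4 each), and diaphragm by 0.23 from skin (p = 0.6, exact permutation). With 3 libraries against 3 this test cannot give a p under 0.1.

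**Figure D3:**
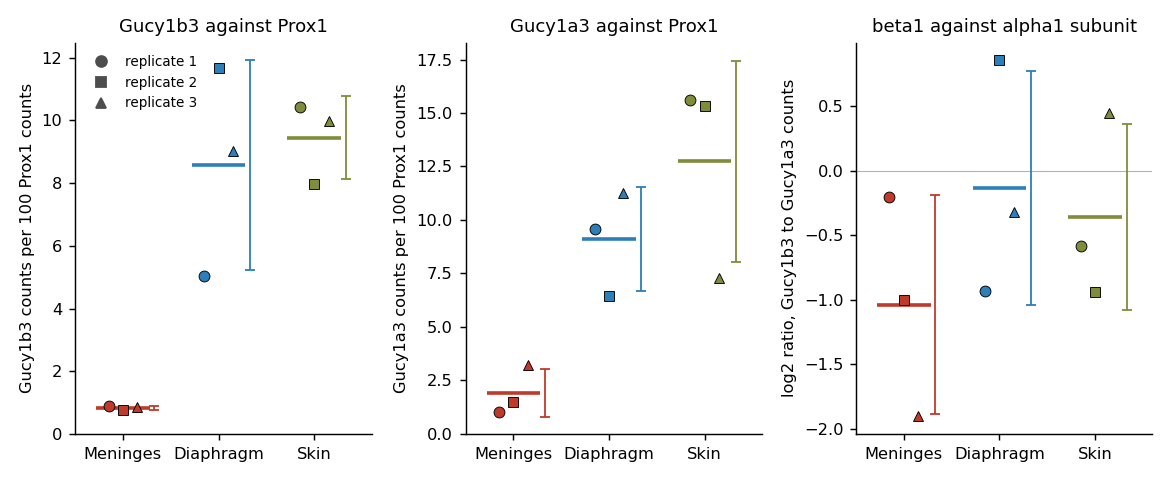
Counts of Gucy1b3 (left) and Gucy1a3 (middle) per 100 Prox1 counts, and log2 ratio of Gucy1b3 to Gucy1a3 counts (right), in each library by tissue, with the mean as a bar and 1 SD as whiskers (n = 3). Against Prox1 the meningeal libraries reach 0.889 for Gucy1b3 and 3.20 for Gucy1a3, under all others; the subunit ratio overlaps between tissues.

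Gucy1a2 (ENSMUSG00000041624, chromosome 9) encodes the alpha2 subunit, which can replace alpha1. Its level was 0.250, 31.7 and 6.58 CPM in the meningeal libraries, so that a single library held most of the counts. It was 6.45, 3.22 and 8.81 CPM in diaphragm. In skin it was 0.0387 and 2.07 CPM in replicates 1 and 2. Skin replicate 3 had no count of it, where up to 0.137 CPM could be missed (3 counts, counting error only). The meningeal libraries overlapped both other tissues, and the diaphragm libraries lay above the skin libraries. Its log2 fold change was 1.06 (standard error 2.11) for meninges against diaphragm, 4.18 (2.38) for meninges against skin and 3.12 (2.26) for diaphragm against skin. None passed (edgeR adjusted p = 0.965, 0.501 and 0.656). Leaving out Meninges replicate 2 turned the first value to -0.85 and took the second to 2.27. Without Skin replicate 2, the values against skin were 9.04 and 7.98.

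Of the alpha subunit signal per kb of transcript, Gucy1a3 made up 98.1%, 24.5% and 84.9% in the meningeal libraries. Its share was 95.9%, 97.1% and 96.1% in diaphragm and at least 99.2% in each skin library. In Meninges replicate 2 the alpha2 gene thus exceeded the alpha1 gene, and in the 8 other libraries alpha1 led. That library also held the highest summed level of the 12 fibroblast genes, 8870 CPM, and their part in the Gucy1a2 value was not tested.

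Upstream of the receptor, Nos3 (ENSMUSG00000028978, chromosome 5) varied widely between libraries of the same tissue. It stood at 5.57, 0.187 and 1.61 CPM in meninges and at 0.0737, 10.9 and 3.76 CPM in diaphragm. In skin it stood at 89.3, 13.5 and 8.09 CPM. All meningeal libraries were under all skin libraries, and diaphragm overlapped both tissues. The means were 2.46 ± 2.79, 4.91 ± 5.51 and 36.9 ± 45.4 CPM (SD, n = 3 each).

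Nos3 in meninges against skin gave a log2 fold change of -3.91 with a standard error of 1.82, at an unadjusted p of 0.0505 (edgeR adjusted p = 0.362). Meninges against diaphragm gave -1.00 (standard error 1.64) and diaphragm against skin -2.91 (standard error 1.74), and neither passed (edgeR adjusted p = 0.950 and 0.552). Single libraries moved these values widely. Without Skin replicate 1 they were -2.13 for meninges against skin and -1.14 for diaphragm against skin. Without Meninges replicate 1 the first was -5.35, and without Diaphragm replicate 2 the second was -4.27. Exons of Nos3 overlap those of Atg9b and Gm15587 on the opposite strand, with 511 and 1589 counts over the 9 libraries. Whether counting used strand, and how reads in overlapping exons were assigned, is not stated in the labels. The effect of the overlap on the Nos3 counts is therefore not known.

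Downstream of cyclic GMP, the kinase gene Prkg1 (ENSMUSG00000052920, chromosome 19) was measured at similar levels in most libraries. It stood at 36.1, 14.0 and 23.6 CPM in meninges, 22.4, 36.8 and 21.7 in diaphragm and 18.6, 22.5 and 75.4 in skin. The tissues overlapped, and Skin replicate 3 stood highest. Means were 24.6 ± 11.1, 26.9 ± 8.52 and 38.9 ± 31.7 CPM (SD, n = 3 each). Its log2 fold change was -0.13 (standard error 0.85) for meninges against diaphragm, -0.66 (0.86) against skin and -0.53 (0.86) for diaphragm against skin (edgeR adjusted p = 0.994, 0.853 and 0.886). The standard errors leave room for differences of 2-fold in either direction.

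Pde5a (ENSMUSG00000053965, chromosome 3), whose product ends the signal by hydrolysing cyclic GMP and is the target of sildenafil, was near 0 in skin. It stood at 9.27, 26.8 and 12.9 CPM in meninges and at 23.8, 2.42 and 9.03 CPM in diaphragm. In skin it had 36 counts in replicate 2 (1.46 CPM) and 0 in replicates 1 and 3, where 0 counts allow up to 0.116 and 0.137 CPM (3 counts, counting error only). Both other tissues lay wholly above skin and overlapped each other.

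For meninges against skin the log2 fold change of Pde5a was 5.05 with a standard error of 2.21, at an unadjusted p of 0.0391, and did not pass (edgeR adjusted p = 0.320, between 0.0803 and 0.548 over the 9 fits with 1 library removed). DESeq2 called it (5.11, adjusted p = 0.0349). For diaphragm against skin the value was 4.58 with a standard error of 2.16 (edgeR adjusted p = 0.428), and for meninges against diaphragm 0.48 with a standard error of 1.86 (edgeR adjusted p = 0.989). The fitted folds against skin rest on the 36 counts of 1 library, and without it the log2 values are 11.9 and 11.4, which depend on the prior count. Exons of 4930447N08Rik, with 122 counts over the 9 libraries, overlap Pde5a on the opposite strand.

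Mural cells, the pericytes and smooth muscle around vessels, are known for soluble guanylate cyclase, Prkg1 and Pde5a. The 14 mural markers examined summed to 576, 1129 and 1376 CPM in the meningeal libraries, 581, 460 and 357 in diaphragm and 131, 54.3 and 329 in skin. Of the 14, 0 were without a count throughout the meningeal libraries, 2 throughout diaphragm and 4 throughout skin. The pericyte gene Rgs5 stood at 184, 454 and 466 CPM in meninges, 250.2, 101 and 162 in diaphragm and 0, 11.2 and 0 in skin. Genes of the list differed in their order. Notch3 stood at 106, 90.5 and 53.9 CPM in diaphragm, 15.7, 43.7 and 63.0 in meninges and at most 0.812 in skin, and Des, which skeletal muscle also expresses, was at 40.9 CPM or more in diaphragm, 5.57 at most in meninges and 0 in skin. Mcam was highest in Skin replicate 1, at 70.05 CPM, and in Skin replicate 3 Acta2 stood at 137 CPM and Kcnj8 at 101. The part of mural RNA in the values of the 6 genes was not tested.

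Platelets also carry soluble guanylate cyclase. The 11 platelet markers summed to 69.2 to 114 CPM for meninges, 214 to 429 for diaphragm and 134 to 330 for skin. Most of this came from Itgb3, an integrin subunit that is also found on endothelium. The platelet chemokine gene Ppbp stood at 186, 40.0 and 24.0 CPM in the diaphragm libraries, at 27.4, 24.2 and 19.1 in meninges and at most 2.94 in skin. The collagen receptor gene Gp6 reached 31.6 CPM in Diaphragm replicate 2, and Pf4, another platelet chemokine gene, 10.4 CPM in Diaphragm replicate 1 and at most 1.90 elsewhere. The part of platelet RNA in the values of the 6 genes was not tested. The 12 leukocyte genes, of which 11 were in the table, summed to 17.2 to 60.6 CPM for meninges, 66.7 to 126 for diaphragm and 0.310 to 29.8 for skin. Ptprc, which encodes CD45, stood at 118 CPM in Diaphragm replicate 2 and at most 6.23 CPM elsewhere, although the sort took CD45- cells.

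Per kb of exon, which allows levels of different genes to be set side by side, the order differed between tissues. In skin, Gucy1b3 (46.7 ± 9.20 CPM per kb) and Gucy1a3 (35.2 ± 13.2) led, within each other's spread. Nos3 (8.94 ± 11.0) and Prkg1 (3.58 ± 2.92) followed, again within their spread, and Gucy1a2 (0.106 ± 0.178) and Pde5a (0.0495 ± 0.0858) were near 0. In diaphragm the same pair led at 39.9 ± 16.3 and 23.9 ± 8.29 CPM per kb. There the next, Prkg1, stood at 2.48 ± 0.784, Pde5a and Nos3 both at 1.19 (SD 1.11 and 1.33) and Gucy1a2 at 0.926 ± 0.422. Each of these lay within the spread of the next in order, while Prkg1 and Gucy1a2 lay apart.

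In meninges no gene stood out on this scale. Gucy1a3 was at 3.02 ± 2.21 CPM per kb, Gucy1b3 at 2.34 ± 0.862, Prkg1 at 2.26 ± 1.02, Gucy1a2 at 1.93 ± 2.50 and Pde5a at 1.66 ± 0.944. Nos3 was lowest at 0.595 ± 0.675 (SD, n = 3 throughout). Neighbours in this order lay within each other's spread. Lengths are those of merged exons in GENCODE vM21, from 3927 bases for Gucy1b3 to 10861 for Prkg1, a later annotation than the one behind the counts.

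Around the 6 genes, a list of 104 symbols in 10 roles covered the rest of the nitric oxide and cyclic GMP route. Of these, 88 were in the table and 72 were tested, 66 of them other than the 6. Cav1 was called lower in meninges in both comparisons, and no other listed gene was called by edgeR in any. Between diaphragm and skin 0 of the 66 were called by edgeR and 0 by limma voom, 7 by DESeq2, and 15 had an unadjusted p under 0.05, to be read against the shares of all genes given above. For meninges against diaphragm, 6 of the 66 had an unadjusted p under 0.05 (10.1% of all genes did). There DESeq2 called 3 (4.64% of the genes it gave an adjusted p) and limma voom 1 (1.35% of all genes). Against skin these counts were 13 (13.8% of all genes), 10 with DESeq2 and 5 with limma voom (2.79% of all genes). DESeq2 there called 8.33% of the genes it gave an adjusted p. Of these 13, 10 and 5, higher in meninges than in skin were 11, 8 and 3, with 2 lower each time. At an unadjusted p under 0.05, 3 of the 6 were higher in meninges than in diaphragm. Of the 15, 13 were higher in diaphragm than in skin. Shares of all genes by direction were not taken for these counts, so the splits are not read as a trend of the route. Among all genes, non-overlap of libraries also fell more often on the higher side. For meninges against diaphragm it was 10.4% higher and 6.7% lower, and against skin 12.9% and 7.34%. For diaphragm against skin it was 7.54% and 5.95%. The counts by role that follow, each of a few genes, are read against the shares for either direction. The median log2 fold change of the 66 was 0.15, 0.25 and -0.04 for meninges against diaphragm, meninges against skin and diaphragm against skin, beside 0.05, 0.08 and 0.01 for all genes.

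**Figure D4:**
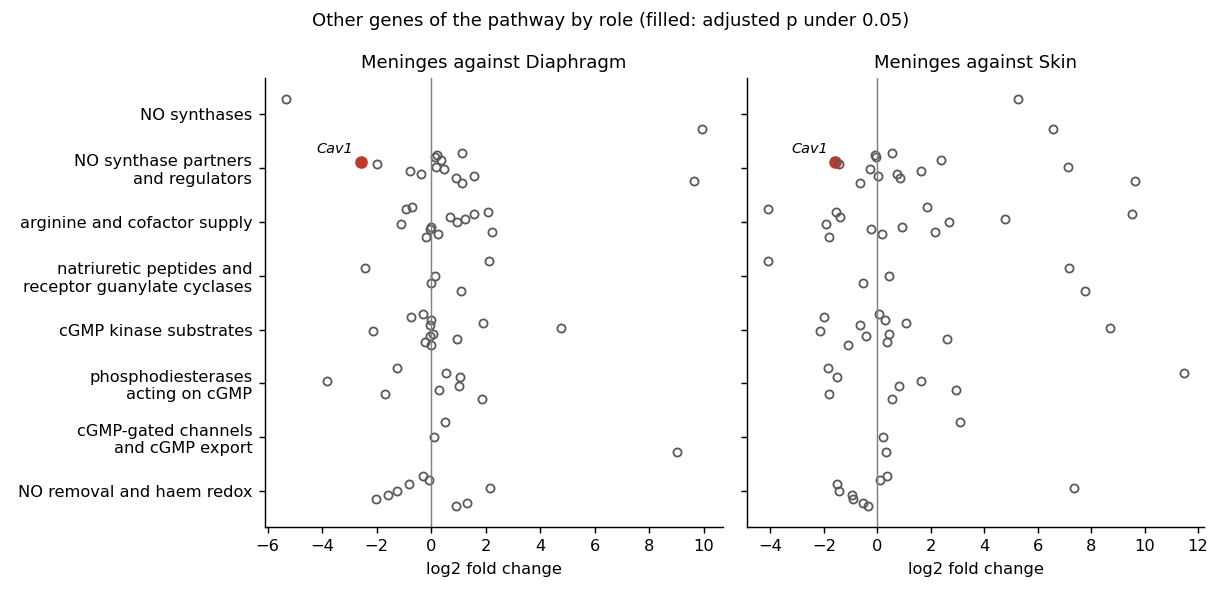
Log2 fold change of the listed genes other than the 6, one point per gene and 1 line per role, for meninges against diaphragm (left) and meninges against skin (right); filled points have an edgeR adjusted p under 0.05. Cav1 is the filled point in both panels, at -2.59 and -1.58.

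Caveolin-1, the coat protein of caveolae that binds endothelial nitric oxide synthase and holds it inactive, is abundant in endothelium. Cav1 was measured at 203, 90.9 and 166 CPM in the meningeal libraries. It was at 1055, 802 and 909 CPM in diaphragm and 485, 511 and 378 CPM in skin. The tissues did not overlap, with diaphragm highest and meninges lowest. Its means were 153 ± 57.1, 922 ± 127 and 458 ± 70.6 CPM (SD, n = 3 each).

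Cav1 in meninges gave a log2 fold change of -2.59 against diaphragm (standard error 0.35, edgeR adjusted p = 0.00537) and -1.58 against skin (standard error 0.34, edgeR adjusted p = 0.0360). Diaphragm against skin gave 1.01 and did not pass (standard error 0.33, edgeR adjusted p = 0.318). The call against diaphragm held in 9 of 9 fits with 1 library removed. That against skin held in 2 of 9, without Diaphragm replicate 1 or Meninges replicate 1, with adjusted p between 0.0290 and 0.119. Scaling to Prox1, Flt4 and Pecam1 gave -0.91 against skin (edgeR adjusted p = 0.203), and the fit of those 2 tissues alone -1.59 (edgeR adjusted p = 0.0998). With meninges represented by replicate 1 alone, neither call passed (-2.19 and -1.20, edgeR adjusted p = 0.112 and 0.706). Per 100 Prox1 counts, Cav1 gave 15.2, 12.7 and 13.7 in meninges, 63.4, 46.0 and 45.0 in diaphragm and 23.8, 28.4 and 19.4 in skin, so the order held on this scale.

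The other nitric oxide synthases varied between libraries. Nos1, the neuronal enzyme, had 18.9 and 63.1 CPM in Diaphragm replicates 2 and 3, 0 counts in Diaphragm replicate 1 and at most 1.27 CPM elsewhere. Nos2, the inducible enzyme, stood at 6.10, 0.469 and 6.26 CPM in meninges, with 0 counts over the diaphragm libraries and 3 over the skin libraries. Neither passed edgeR's test in any comparison, and DESeq2 called Nos1 between diaphragm and skin. The chaperone gene Hsp90ab1, whose product helps activate Nos3, was at 815 ± 190, 1065 ± 213 and 488 ± 223 CPM in meninges, diaphragm and skin, with no call.

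Supply of substrate and cofactors was described by 13 tested genes, with 0 called by edgeR in each comparison and 0, 2 and 2 at an unadjusted p under 0.05, all higher in the first tissue, for meninges against diaphragm, meninges against skin and diaphragm against skin. In the same order DESeq2 called 0, 2 and 0, and limma voom 0 in each. Slc7a2, a transporter of arginine, had the highest level of them in meninges, at 118, 283 and 230.1 CPM. It was at 67.7, 66.3 and 0.0716 CPM in diaphragm and 55.3, 43.6 and 42.2 in skin, so that the meningeal libraries lay above all others without passing (edgeR adjusted p = 0.582 and 0.468). Por, the cytochrome P450 reductase, was at 106, 54.8 and 16.6 CPM on average in meninges, diaphragm and skin, and its difference of 2.68 between meninges and skin on the log2 scale did not pass (edgeR adjusted p = 0.0860). DESeq2 called Por in that comparison.

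Cyclic GMP can also be made by the membrane receptors for natriuretic peptides. Npr1 was at 49.0, 44.2 and 36.2 CPM and Npr2 at 49.0, 48.7 and 71.0 CPM on average in meninges, diaphragm and skin, and libraries of the tissues overlapped for both. Npr1 gave a log2 fold change of 0.15 (standard error 0.94) against diaphragm and 0.43 (0.94) against skin, and Npr2 of 0.01 (0.82) and -0.54 (0.82). Of the 5 tested genes of this role, edgeR called 0 in each comparison, with 0, 1 and 2 at an unadjusted p under 0.05, 0, 1 and 0 with DESeq2 and 0 in each with limma voom.

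Among 12 tested substrates and partners of the kinase, 0 were called by edgeR in each comparison, 0 by limma voom and 0, 1 and 0 by DESeq2, and 0, 1 and 0 had an unadjusted p under 0.05. Itpr1, a calcium release channel of the endoplasmic reticulum, stood at 399, 406 and 329 CPM on average in meninges, diaphragm and skin. Ppp1cb, a catalytic subunit of the phosphatase that acts on myosin, stood at 209.7, 201 and 156 CPM. Their log2 fold changes were between -0.02 and 0.42, with standard errors of 0.44 to 0.47.

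Besides Pde5a, 8 phosphodiesterase genes acting on cyclic GMP were tested, with 0 called by edgeR, 1, 1 and 2 by DESeq2 and 0, 1 and 0 by limma voom, and 1, 1 and 2 at an unadjusted p under 0.05. Pde2a, which cyclic GMP itself stimulates, had the highest level at 205, 101 and 117 CPM on average in meninges, diaphragm and skin. Pde3b, which cyclic GMP inhibits, was at 19.2, 62.3 and 67.3 CPM, and its log2 fold changes of -1.70 and -1.81 in the meningeal comparisons did not pass (edgeR adjusted p = 0.557 and 0.375). Pde1c, a calcium-dependent enzyme picked here after its values were seen, was at 76.7, 105 and 98.6 CPM in diaphragm. It was at 13.2, 5.16 and 1.35 CPM in meninges and 1.59, 4.79 and 0 in skin, so that diaphragm stood above all others without passing (edgeR adjusted p = 0.355 against meninges and 0.229 against skin). DESeq2 called Pde1c in both of these comparisons.

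Cyclic GMP leaves cells through the transporters Abcc4 and Abcc5. Abcc5 was measured at 99.9, 93.6 and 85.7 CPM on average in meninges, diaphragm and skin, and Abcc4 at 57.1, 39.7 and 6.73 CPM, with no call for either. In the haem redox and nitric oxide removal group, Cyb5r3, a reductase that keeps the haem of soluble guanylate cyclase in the state that senses nitric oxide, had the highest level. It stood at 340, 170 and 335 CPM in meninges, 368, 490 and 619 in diaphragm and 1075, 662 and 655 in skin, with no overlap between tissues. Its log2 fold change was -1.50 against skin and -0.81 against diaphragm (standard errors 0.36 for both), and neither passed (edgeR adjusted p = 0.0645 and 0.459), although DESeq2 and limma voom called it against skin. Adh5, which clears S-nitrosoglutathione, was at 59.0, 72.8 and 46.1 CPM on average.

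The genes whose pattern over the 9 libraries came closest to those of the subunit genes were found from the root mean square difference of log2 CPM, each gene centred on its own mean, among the 8728 genes of sufficient level. For Gucy1b3 these were Wipf3 (0.43), Pkhd1l1 (0.50), Dtx1 (0.58), Tnxb (0.61) and Glis3 (0.67), where the median gene lay at 2.36. Gucy1a3 was the 9th closest at 0.78. For Gucy1a3 the closest were Glis3 (0.39), Wipf3 (0.55), Junb (0.57), Dtx1 (0.58) and Mcu (0.60), with a median of 2.09, and Gucy1b3 was the 17th.

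These genes differ in what they are known for. Dtx1 is a regulator of Notch signalling, Glis3 a zinc finger transcription factor, Junb a subunit of the AP-1 transcription factor and Mcu the calcium channel of the inner mitochondrial membrane. Dtx1 stood at 22.7 ± 5.06, 165 ± 47.6 and 242 ± 15.2 CPM in meninges, diaphragm and skin, and Glis3 at 11.4 ± 5.33, 92.5 ± 33.9 and 176 ± 49.0 CPM (SD, n = 3 each). For both, each meningeal library lay under all others, which the choice by likeness to the subunit genes makes likely in advance. By closeness to Gucy1b3, Prkg1 was at place 1538 (1.92), Nos3 at 4109 (2.31) and Pde5a at 8339 (4.71) of 8728. The median gene lay at 2.36, and Gucy1a2 was under the level needed for this measure. Because the measure counts the size of differences as well as their direction, a gene that varies little can rank before the median gene. These places alone therefore do not show a shared pattern.

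**Figure D5:**
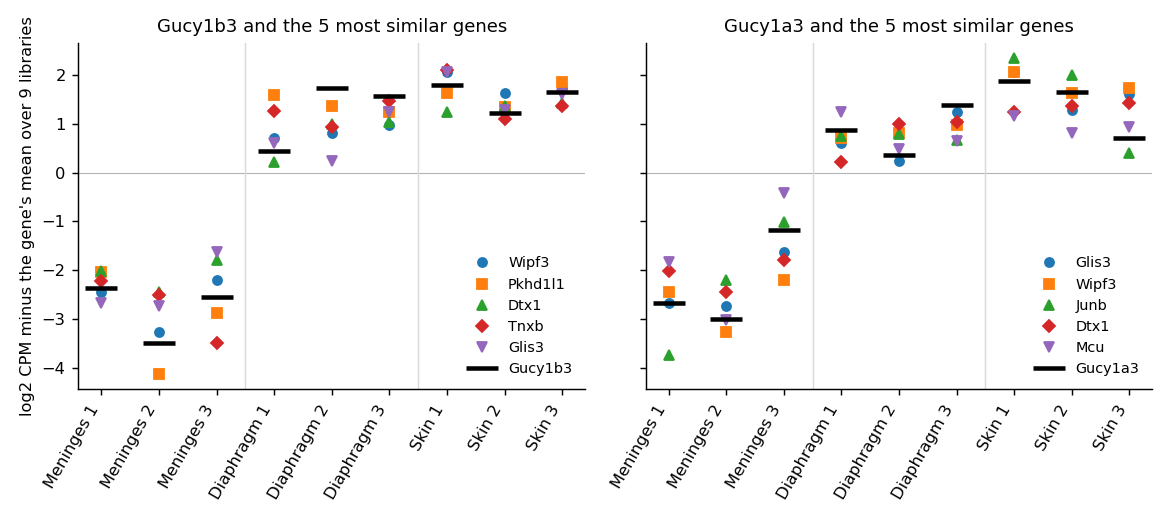
Log2 CPM minus each gene's mean over the 9 libraries, by library, for Gucy1b3 (left) and Gucy1a3 (right) as black bars and the 5 genes closest to each as symbols. In the meningeal libraries Gucy1b3 lies between -3.50 and -2.37, and the genes named, chosen for their likeness, also lie below 0.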

How the data were processed

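RNA of LECs, sorted by flow cytometry from 3 tissues with 3 libraries each, was, per the labels' protocols, extracted with PicoPure and amplified with the Ovation V2 kit. The deposited values are read counts per Ensembl gene, made by the authors with FastQC, STAR and HTSeq on mm9, per the submitters' processing notes. For the strand setting, the annotation and reads with several matches nothing is stated there, and coordinates come only from RefSeq on GRCm38.p6. All columns were used.

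Tests used edgeR 4.0.16 under R 4.3.3 (filterByExpr, TMM, glmQLFit and glmQLFTest, 1 mean per tissue over 9 libraries, Benjamini-Hochberg adjustment over 14831 genes, called under 0.05). With a biological coefficient of variation of 1.24, only large differences could pass. The subunit ratio, with 0.5 added to each count, was compared by exact permutation. The fits were also run on simulated counts, drawn without the differences in other cell types seen here, and no result given rests on those counts. Alternatives were DESeq2 1.42.0, limma 3.58.1 voom with quality weights, other scalings, filters and sample sets, a replicate block, a robust fit and the removal of each library. Of 27 pairs of libraries from different tissues, the same-numbered ones correlated between -0.02 and 0.05, so the numbers were not taken as pairs.

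The members and the gene lists were chosen with earlier results of these data known. Named genes are the 6 members, listed genes called in any comparison, the 2 highest of each role, and the 5 closest in pattern to Gucy1b3 and to Gucy1a3 with a mean log2 CPM of 3 or more (prior count 2). Of the listed symbols, 1 that stood for more than 1 gene was left out. Marker lists for blood endothelium, muscle, mesothelium, red cells and bone are given in the closing section.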

Additional observations from a re-analysis of the deposited data

How the results depend on the processing

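Of 510 values recomputed under alternatives, 433 were counted as the same and 21 changed sign. For fold changes, the same meant the same direction and the same side of the threshold. For the subunit ratio it meant the same direction, and for the number of genes called a similar size. The number of genes called for meninges against diaphragm was 51, and 634 with DESeq2, 298 without a filter, 108 with 2 tissues alone, 200 with limma voom, 11 with replicate 1 standing alone for meninges and 19 to 105 with each library left out. For meninges against skin it was 196, and 1116, 610, 414 (limma voom), 58 (Meninges replicate 1 alone) and 74 to 236 in turn. For diaphragm against skin it was 6, and 818 with DESeq2, 13 when scaled to Prox1, Flt4 and Pecam1, 305 without a filter, 13 with at least 50 counts in 3 libraries, 1 with 2 tissues alone, 1 with limma voom, 36 with a robust fit, 82 without Meninges replicates 2 and 3 and 2 to 58 in turn. With the replicate number as a block it was 70, 231 and 16, and no call of the 6 genes changed; this block turned Gucy1a2 to -1.21 and Pde5a to -0.20 for meninges against diaphragm.

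Scaling to Prox1, Flt4 and Pecam1 moved the median of all genes by 0.53, 0.83 and 0.29 in the 3 comparisons, and higher against lower calls from 25 and 26 to 30 and 14, from 111 and 85 to 180 and 25, and from 5 and 1 to 12 and 1. With it Prkg1 became 0.20 for meninges against diaphragm and Gucy1b3 0.044 for diaphragm against skin, and Gucy1a3 -2.56 for meninges against diaphragm lost its call, as it did with 2 tissues alone (-3.00). With Meninges replicate 1 alone, a fit that assumes this library varies like the others, the values against diaphragm were -3.61 for Gucy1a3, -3.73 for Gucy1b3, -4.60 for Gucy1a2, 0.18 for Nos3, 0.42 for Prkg1 and -0.34 for Pde5a, and against skin -3.98 for Gucy1b3 and -1.50 for Gucy1a2. Gucy1a2 was -0.44 against diaphragm with limma voom, and DESeq2 called Pde5a against skin (5.11).

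With each library left out, meninges against diaphragm ran from -3.77 to -2.66 for Gucy1a3, -0.85 to 1.63 for Gucy1a2, -2.44 to 0.35 for Nos3, -0.52 to 0.15 for Prkg1 and -0.080 to 1.51 for Pde5a. Prkg1 ran from -1.05 to 0.23 against skin and from -0.86 to 0.38 for diaphragm against skin, Gucy1b3 from -0.45 to 0.072 for diaphragm against skin, and the subunit log2 ratio from -0.27 to 0.63 there. The causes were not tested. Gucy1a2 and Pde5a lay near 0 counts in skin, and the part of sequencing depth in this was not tested.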

Other observations

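The marker lists not described above gave these summed levels. The 14 blood endothelial genes summed to 1157 to 2831 CPM for meninges, 989 to 1799 for diaphragm and 742 to 787 for skin. The 12 skeletal muscle genes summed to 22.8 to 48.4 CPM for meninges, 451 to 1192 for diaphragm and 81.2 to 269 for skin. Most of the skin sums came from Ttn, at 80.4, 55.8 and 269 CPM in Skin replicates 1, 2 and 3. In these libraries 8, 4 and 11 of the 12 genes had no count. For the 10 mesothelial genes the sums were 25.2 CPM at most in meninges, 54.4 to 1261 in diaphragm and 0.0387 at most in skin. The 5 red cell genes in the table summed to 0.281 to 47.6, 5.69 to 75.7 and 14.9 to 27.1 CPM, and the 9 bone and cartilage genes to 201 to 1950, 3.98 to 42.5 and 0.310 to 121 CPM in meninges, diaphragm and skin. Nos1 was present in Diaphragm replicates 2 and 3, and the neuronal enzyme is known in skeletal muscle; the part of muscle RNA in its value was not tested.

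Nostrin, which encodes a protein that draws endothelial nitric oxide synthase away from the membrane, was picked after its values were seen. It stood at 5.23, 1.44 and 3.96 CPM in the meningeal libraries and had 0 counts in all 6 others, without passing edgeR's test (adjusted p = 0.324 against diaphragm and 0.203 against skin), although limma voom called it against skin.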
